A study of Mus musculus with 36 samples.

Results

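Histone H4 in which lysine 91 had been replaced by glutamine (H4K91Q) was compared with wild-type H4 (H4WT) in mouse embryonic stem cells (mESCs), the self-renewing cells of the early embryo kept in culture. Of the 36 samples of the series, the comparison rests on 2 anti-HA pulldowns, 1 for each histone, and a pulldown from cells with an empty vector (EV) served as background. A pulldown of H4K91R, in which arginine replaces the lysine, was set beside them. Each line stably carried a PiggyBac transposon that held the HA-tagged histone or nothing, and the labels name no other genetic change in these lines. Whether a line is 1 clone or a pool, its strain, and how much tagged histone it made beside the cells' own H4 are not stated in the labels. ChIP-seq of the HA tag recovers DNA bound to the tagged histone, and the deposited lists give peaks in coordinates of the mm10 build. The other 32 samples were not analysed here.

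A peak was used if it did not overlap an empty-vector peak by 1 bp or more, and is called a region. The rule dropped 108 of the 14314 H4K91Q peaks and 2080 of the 69158 H4WT peaks. It left 14206 H4K91Q regions and 67078 H4WT regions, together 81284 of the 135634 peaks in the 4 lists. A gained region is an H4K91Q region that overlapped no H4WT region. A kept region is an H4WT region overlapped by an H4K91Q region, and a lost region is an H4WT region that was not. These words compare 2 lists from 2 cell lines, 1 library each, and do not describe a change over time. Read numbers are not part of the lists, so the depth is unknown, and with 1 library a line no test was possible. A place without a region is one where the authors' caller passed nothing, and a shallower or weaker pulldown passes fewer places. The exact (Clopper-Pearson) 95% intervals given in brackets cover counting error only. Histone peaks do not show which genes the cells express, so the labelled cell type was not checked here.

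Lysine 91 of H4 lies where the H3-H4 tetramer meets the H2A-H2B dimer, and its side chain helps to hold the dimer in the nucleosome. It can be acetylated and ubiquitylated. Glutamine has no charge and is widely used as a stand-in for acetyl-lysine, while arginine keeps the positive charge. New H4 enters chromatin together with H3, either behind the replication fork with H3.1 or outside replication with H3.3. HIRA places H3.3 mainly at active genes and regulatory elements. DAXX and ATRX place it at repeats, telomeres and imprinted control regions, which carry DNA methylation on 1 parental copy. Zinc finger proteins such as ZFP57, with their partner KAP1 (TRIM28), protect that methylation, and ZFP57 recognises methylated TGCCGC.

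The sequences that carry the main contrast are the stretches of 250 bases just before the annotated starts of 9 genes. The first 5 belong to imprinted genes where both histones had a region. Nnat encodes neuronatin, a small membrane protein. Peg3 encodes a zinc finger protein, Nap1l5 a relative of nucleosome assembly proteins, Plagl1 a zinc finger transcription factor and Mest a member of the hydrolase-fold family. Slc51a, a subunit of a bile acid transporter, and Bglap3, a relative of the bone protein osteocalcin, lie under a gained region (H4K91Q folds of 9.73 and 6.21). Irf2bpl, a regulator related to IRF2-binding proteins, and Ece1, the endothelin-converting enzyme, lie under a lost region (H4WT folds of 17.4 and 16.0). All run 5′ to 3′ on the strand of the gene, from RefSeq on GRCm38.p6, the assembly that mm10 names. Capitals mark TGCCGC on either strand.
Nnat (chr2:157559828-157560077, plus strand): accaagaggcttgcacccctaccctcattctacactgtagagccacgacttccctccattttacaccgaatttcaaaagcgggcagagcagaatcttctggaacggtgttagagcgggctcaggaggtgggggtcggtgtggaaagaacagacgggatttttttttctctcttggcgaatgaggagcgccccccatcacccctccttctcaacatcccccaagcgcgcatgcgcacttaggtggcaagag
Peg3 (chr7:6730420-6730669, minus strand): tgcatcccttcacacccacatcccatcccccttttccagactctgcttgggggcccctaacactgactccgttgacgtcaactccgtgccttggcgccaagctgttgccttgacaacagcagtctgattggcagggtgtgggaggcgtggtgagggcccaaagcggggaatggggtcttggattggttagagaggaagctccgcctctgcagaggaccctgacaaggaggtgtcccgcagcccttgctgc
Nap1l5 (chr6:58907127-58907376, minus strand): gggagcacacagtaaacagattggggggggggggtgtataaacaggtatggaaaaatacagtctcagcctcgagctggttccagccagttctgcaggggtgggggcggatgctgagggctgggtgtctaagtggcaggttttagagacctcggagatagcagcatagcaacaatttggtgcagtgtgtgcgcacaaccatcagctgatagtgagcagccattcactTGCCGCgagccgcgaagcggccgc
Plagl1 (chr10:13090582-13090831, plus strand): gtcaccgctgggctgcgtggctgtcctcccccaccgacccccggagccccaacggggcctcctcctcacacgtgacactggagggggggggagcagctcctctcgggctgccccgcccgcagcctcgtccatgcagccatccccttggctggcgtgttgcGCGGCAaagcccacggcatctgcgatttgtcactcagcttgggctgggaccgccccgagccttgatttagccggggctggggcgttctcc
Mest (chr6:30737800-30738049, plus strand): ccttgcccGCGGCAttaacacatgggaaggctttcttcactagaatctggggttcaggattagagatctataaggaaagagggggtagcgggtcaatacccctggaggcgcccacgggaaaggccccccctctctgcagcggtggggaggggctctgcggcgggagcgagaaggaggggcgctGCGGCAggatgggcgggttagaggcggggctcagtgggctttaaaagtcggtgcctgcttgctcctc
Slc51a (chr16:32487880-32488129, minus strand): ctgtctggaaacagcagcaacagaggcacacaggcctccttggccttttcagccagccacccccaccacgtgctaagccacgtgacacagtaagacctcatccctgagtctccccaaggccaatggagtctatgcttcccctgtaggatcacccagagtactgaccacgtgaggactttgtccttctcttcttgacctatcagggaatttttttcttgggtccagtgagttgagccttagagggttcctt
Bglap3 (chr3:88369832-88370081, minus strand): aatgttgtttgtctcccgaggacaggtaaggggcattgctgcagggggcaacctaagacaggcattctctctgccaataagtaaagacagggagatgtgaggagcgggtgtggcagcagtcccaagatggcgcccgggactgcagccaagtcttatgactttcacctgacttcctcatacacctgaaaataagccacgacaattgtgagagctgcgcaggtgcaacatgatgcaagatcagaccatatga
Irf2bpl (chr12:86884815-86885064, minus strand): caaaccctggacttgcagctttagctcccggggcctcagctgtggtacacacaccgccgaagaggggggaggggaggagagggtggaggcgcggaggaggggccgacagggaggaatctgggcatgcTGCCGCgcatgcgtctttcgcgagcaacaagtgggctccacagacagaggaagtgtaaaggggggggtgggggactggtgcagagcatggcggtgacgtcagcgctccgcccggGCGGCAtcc
Ece1 (chr4:137861987-137862236, plus strand): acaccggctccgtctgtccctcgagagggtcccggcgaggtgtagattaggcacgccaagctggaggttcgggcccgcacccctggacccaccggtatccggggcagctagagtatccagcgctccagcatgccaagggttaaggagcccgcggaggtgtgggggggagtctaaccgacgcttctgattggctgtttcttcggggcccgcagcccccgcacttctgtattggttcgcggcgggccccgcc

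These stretches differ in base composition. CG dinucleotides numbered 12 before Nnat, 8 before Peg3, 10 before Nap1l5, 19 before Plagl1 and 14 before Mest. The stretch of Slc51a had 3, that of Bglap3 6, that of Irf2bpl 17 and that of Ece1 22. The motif stood once in the stretches of Nap1l5 and Plagl1 and at 2 places in those of Mest and Irf2bpl. It was not found in the other 5 windows, which says only that these letters are not in them.

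Most H4K91Q regions were gained and nearly all H4WT regions were lost. H4K91Q had 11530 gained regions, 81.2% of its list (80.5 to 81.8), and 2676 that met H4WT, 18.8% (18.2 to 19.5). H4WT had 2745 kept regions, 4.09% of its list (3.94 to 4.24), and 64333 lost ones. With H4WT shortened to the list length of H4K91Q, the share of H4K91Q regions meeting H4WT was 6.92%, and with an overlap of 50% of each region it was 10.7%. The H4K91Q regions that met H4WT were wider, with a median of 398 bp, than the gained ones, at 302 bp. Of the former 12.2% (11.0 to 13.5) spanned at least 1 kb, and of the latter 3.76% (3.42 to 4.12). In 70.6% of the 2896 overlapping pairs the H4K91Q region was the wider one. The points of highest signal of a pair lay a median of 82 bp apart, and 56.7% of pairs lay within 100 bp.

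H4K91R was commoner at kept than at lost regions. It had a region at 94.7% of kept regions (93.8 to 95.5) and at 35.3% of lost ones (34.9 to 35.7). Of gained regions, 44.0% (43.1 to 44.9) had H4K91R. Few gained regions lay next to an H4WT region. Their median distance to the nearest H4WT region was 18706 bp, and 894 of them (7.75%) lay within 1 kb of one. Lost regions lay a median of 137492 bp from the nearest H4K91Q region.

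H4WT regions with H4K91Q were rarest at gene ends and commonest outside genes. A region counts as at a gene end when its midpoint is at most 1 kb from the first or last base of a protein-coding gene. H4WT had 16945 such regions, and 139 of these were kept, 0.820% (0.690 to 0.968). Elsewhere inside genes 809 of 33158 were kept, 2.44% (2.28 to 2.61). Outside genes 1797 of 16975 were kept, 10.6% (10.1 to 11.1). The gene table gives no strand, so starts and other ends are pooled here. Seen from H4K91Q the order was the opposite: 45.7% (40.1 to 51.4) of its 313 regions at gene ends met H4WT, 24.9% (23.4 to 26.5) of those inside genes and 16.3% (15.6 to 17.1) of those outside. The lists differ most in size at gene ends, so both shares are needed.

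The order by place held at every level of H4WT signal. H4WT regions were ranked by the authors' fold and divided into 5 equal groups. In the highest group 30.6% (28.6 to 32.6) of the regions outside genes were kept. Of those elsewhere inside genes 5.12% (4.57 to 5.72) were kept, and of those at gene ends 1.59% (1.28 to 1.95). In the lowest group the shares were 5.85%, 1.52% and 0.441%. The share kept over all places was 2.74% in the lowest group and 7.50% in the highest.

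**Figure D1:**
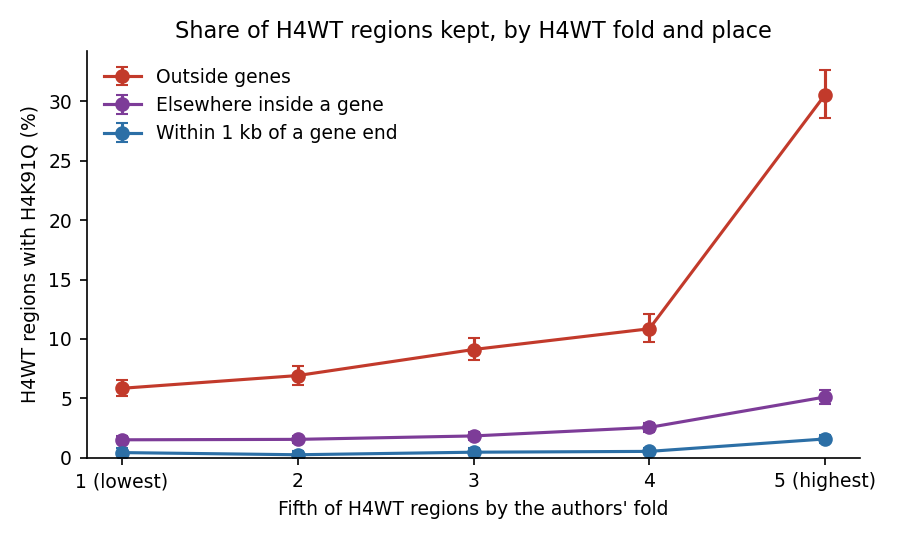
Percent of H4WT regions overlapped by an H4K91Q region (vertical axis) in 5 equal groups of H4WT regions ranked by the authors' fold (horizontal axis), for 3 places. Bars are exact 95% intervals; the points outside genes lie above the others in every group and reach 30.6% in the highest.

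Gained regions lay mostly outside genes, and lost regions mostly in them. Outside protein-coding genes lay 78.6% of gained regions (77.9 to 79.4), 65.5% of kept regions (63.7 to 67.2) and 23.6% of lost regions (23.3 to 23.9). In the annotated span of the chromosomes 60.5% of bases lie outside genes. Gene ends held 1.47% of gained, 5.06% of kept and 26.1% of lost regions, and 2.93% of bases. With H4WT shortened as above, 10.4% of lost regions lay outside genes. Of the regions outside genes, 8.32% of gained and 8.35% of kept ones were over 500 kb from the nearest protein-coding gene, and 3.16% of lost ones.

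**Figure D2:**
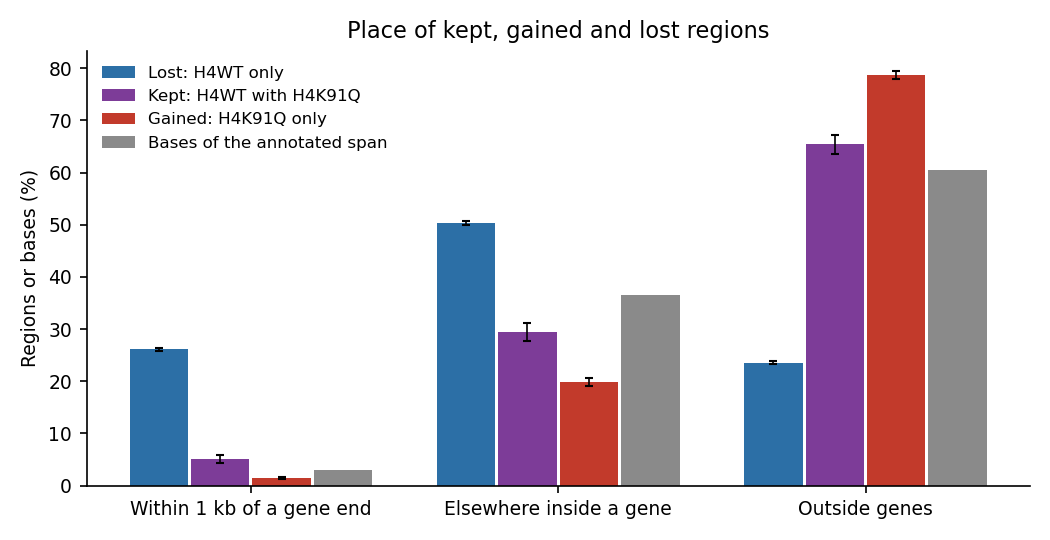
Percent of lost, kept and gained regions, and of bases of the annotated span (vertical axis), at gene ends, elsewhere inside genes and outside genes (horizontal axis); bars on the regions are exact 95% intervals. Lost regions stand above the share of bases at gene ends and inside genes, and gained regions stand above it outside genes (78.6% against 60.5%).

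Kept and gained regions were commoner than lost ones in the first part of the chromosomes, and gained ones were rarer than both in the last. Mouse chromosomes have the centromere near 1 end, where coordinates begin. When each annotated span was divided into 10 equal parts, the first held 16.1% of gained, 12.97% of kept and 5.92% of lost regions, beside 7.60% of protein-coding genes. The last held 12.1% of gained, 21.2% of kept and 19.08% of lost regions, beside 12.04% of genes. By chromosome, the share of H4WT regions kept was lowest on chromosome 19, at 1.79% (1.27 to 2.43), and on chromosome 11, at 2.02% (1.68 to 2.40). Among autosomes it was highest on chromosome 3, at 6.95% (5.92 to 8.11). Chromosome 5 held 11.9% of all kept regions and 7.92% of lost ones. On chromosome Y 48 of 84 H4WT regions were kept, and 44 of the kept ones lay in chrY:90000001-91000000, near its end. This end of Y pairs with the end of X at Mid1, where sequence is shared, so which of the 2 chromosomes these regions came from is uncertain.

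At the level of genes, a gene is called marked where a region overlapped the 1 kb around either annotated end. H4K91Q marked 277 of 21883 protein-coding genes (1.27%) and H4WT 12771 (58.4%). Both marked 218 genes (0.996%), called kept. H4K91Q without H4WT marked 59 (0.27%), called gained, and H4WT without H4K91Q marked 12553 (57.4%), called lost. With H4WT shortened to the length of the H4K91Q list there were 140 kept, 137 gained and 6246 lost genes. Since the histones can mark different ends of a gene, an H4K91Q region and an H4WT region within 1 kb of the ends overlapped each other at 145 of the 218 kept genes. At 4 of the 59 gained genes an H4K91Q region at an end met an H4WT region farther away. H4K91R marked 213 of the kept genes, 32 of the gained and 7613 of the lost.

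The kept genes of highest H4K91Q fold, with predicted Gm, Rik and BC genes passed over here and among gained and lost genes, included several at wide regions. The widest H4K91Q region, chr17:23814553-23825667, spanned 11115 bp with a fold of 24.6. This region covered the part of Srrm2, a spliceosome scaffold protein, next to its neighbour Elob, an elongin subunit, and the near end of Elob. It met 11 separate H4WT regions, more than any other H4K91Q region. The region chr10:79736483-79742186, fold 23.5, lay in Polrmt, the mitochondrial RNA polymerase, next to the end of Hcn2, a pacemaker channel, and met 4 H4WT regions. Another such region, chr17:6735608-6741273 with a fold of 16.9, lay at the end of Ezr, which encodes the membrane-cytoskeleton linker ezrin, and met 3. It also reached the end of Sytl3, a vesicle-trafficking gene that counts as gained because none of those H4WT regions came within 1 kb of its ends. At Rif1, a replication timing factor, the histones marked different ends: H4K91Q had chr2:52127095-52127764 (fold 14.3) at 1 end, and H4WT had chr2:52072886-52073507 (fold 7.99) at the other. Nap1l5, Ogfod2, Angptl6 and Peg3 completed the 10 named, with H4K91Q folds from 11.5 to 13.6.

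Gained genes were fewer than kept ones. After Sytl3, the named ones of highest fold were Slc51a (chr16:32488493-32489818, fold 14.3), Cdk15 (chr1:59349703-59351896, fold 10.5), a cyclin-dependent kinase, and Ube2l6, an ISG15-conjugating enzyme, with a fold of 8.93. Enpp6, a choline phosphodiesterase of oligodendrocytes, had 7.98, and Abo, the blood group glycosyltransferase, 7.94. Zfp605, Pla2g4c, Pxt1 and Lrif1 followed with 6.61 to 7.27. Of these 10, Cdk15 and Enpp6 had no H4K91R region at an end. The 4 genes whose H4K91Q region met H4WT farther from the gene's ends were Sytl3, Slc51a, Cdk15 and Pxt1.

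Lost genes of highest H4WT fold were Irf2bpl (chr12:86881784-86884923, fold 17.4), the acid-sensing ion channel gene Asic4 (17.4), the choline kinase gene Chka (17.3) and Sarm1 (16.9), which consumes NAD in injured axons. Acads, a mitochondrial acyl-CoA dehydrogenase, shared its region of fold 16.7 with Rpl37rt, a retroposed copy of a ribosomal protein gene whose reads may be hard to tell from those of the parent gene. Cercam and Urm1 also shared 1 region, with a fold of 16.3, and Irgc1 (16.1) and Csf2ra (16.0) completed the 10. At 5 of the lost genes, Csf2ra among them, an H4WT region at an end met an H4K91Q region farther away.

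The loci drawn next show regions of the 3 classes. At Nnat, which lies within the Blcap gene, the H4K91Q region chr2:157558985-157561901 (2917 bp, fold 8.29) covered a pair of H4WT regions, the higher with a fold of 18.7. In the 58.3 kb of Etv5, an ETS transcription factor, 14 gained regions lay close together, and 1 H4K91Q region met H4WT. As a gene Etv5 counts as lost, since H4WT alone had a region within 1 kb of its ends. At Sox2, a core pluripotency factor, H4WT had chr3:34650190-34651385 with a fold of 9.31 and H4K91Q had nothing at either end.

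**Figure D3:**
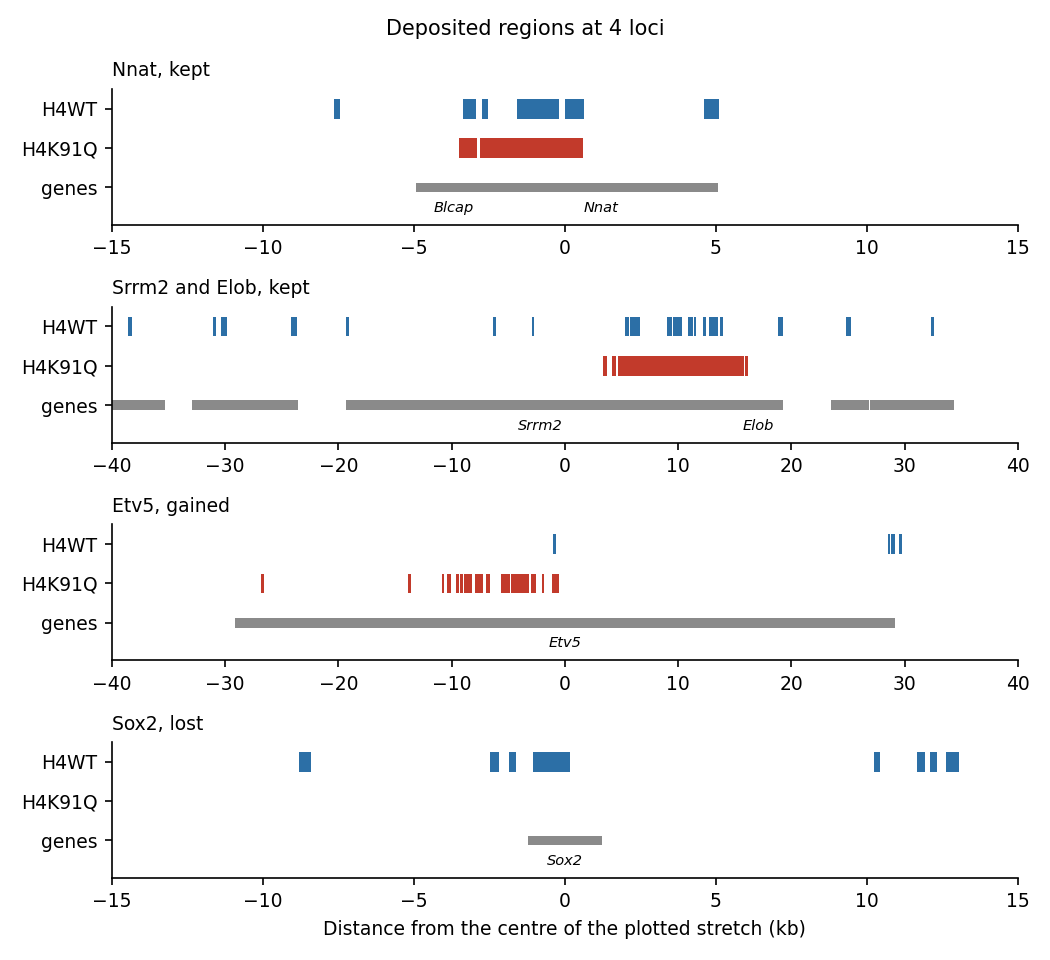
Regions of H4WT (blue) and H4K91Q (red) with protein-coding genes (grey) at 4 loci; the horizontal axis is the distance in kb from the centre of each stretch. At Nnat and at Srrm2 and Elob 1 wide H4K91Q region spans several H4WT regions. In Etv5 H4K91Q stands mostly without H4WT, and the word gained there refers to these regions, since the gene counts as lost by its ends. At Sox2 only H4WT has regions.

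Imprinted genes, which are expressed from 1 parental copy, had the highest share of members with H4K91Q among the 19 lists. The interval of this share overlaps those of several lists below, such as the heterochromatin, germline, 2-cell stage, Polycomb, housekeeping and pluripotency lists. Of 39 protein-coding imprinted genes, 10 had an H4K91Q region at an end, or 25.6% (13.04 to 42.13), beside 1.27% of all protein-coding genes. H4WT marked 32 of them, 82.1% (66.5 to 92.5), beside 58.4%. All 10 were kept and none was gained, and 22 were lost. In the 10 the H4K91Q and H4WT regions overlapped, and H4K91R was present. By the region of highest fold, the 10 genes rest on 8 H4K91Q regions, since Peg3 and Usp29 share 1 and Peg10 and Sgce share another. The H4K91Q count stayed between 9 and 11 with a −log10 q of 5 or more, or with windows of 500 bp or 2 kb. A shorter H4WT list cannot change that count. With it H4WT marked 22 of the 39 imprinted genes, 56.4%, beside 29.2% of all protein-coding genes.

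Most of the H4K91Q regions at the kept imprinted genes spanned over 1 kb and lay across an end of the gene. At Nap1l5 H4K91Q had chr6:58906310-58907403 (fold 13.6), and H4WT had a region of fold 16.2 within it. Peg3 and Usp29 start next to each other in opposite directions, and chr7:6727842-6730971, 3130 bp with a fold of 11.5, reached both and met 3 H4WT regions. At Plagl1 chr10:13089905-13091355 had a fold of 8.60, and the H4WT region inside it had 14.5. Peg10, a retrotransposon-derived gene of the placenta, and its neighbour Sgce, a sarcoglycan, shared chr6:4747032-4748384, with a fold of 7.64. Zrsr1, a splicing factor copy inside Commd1, had 7.24, and Mcts2, a retroposed gene inside H13, had 5.84. Igf2, the fetal growth factor, had 4.92 in a region just outside its annotated span (chr7:142667685-142668177), and H4WT had 12.7 there.

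Other imprinted genes had H4K91Q inside the gene. Counting the whole gene with 1 kb on each side, 24 of the 39 imprinted genes had the midpoint of an H4K91Q region, or 61.5% (44.6 to 76.6), beside 7.17% of all protein-coding genes. H4WT had midpoints in 38 of them, beside 68.0% of all protein-coding genes. Over all protein-coding genes, 0.8% had an H4K91Q midpoint and no H4WT midpoint. Imprinted genes were longer, with a median of 38.3 kb beside 17.2 kb. Among genes of 20 to 80 kb the counts were 7 of 10 imprinted genes and 585 of all 6900 (8.48%). Several of the 24 count a nested gene's region, as Herc3 does for Nap1l5, Blcap for Nnat, H13 for Mcts2 and Commd1 for Zrsr1. There were 48 distinct H4K91Q regions in or at imprinted genes, and 27 of them (56.25%) met H4WT. In the complete list the share was 45.7% at gene ends, 24.9% inside genes and 16.3% outside genes, or 18.8% over all places. H4K91R was present at 38 of the 48.

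Inside Grb10, a growth-restraining adaptor, H4K91Q had chr11:12025304-12027270 with a fold of 12.9 and H4WT a region of 19.7 in it. Impact, a regulator of translation, had an H4K91Q region of fold 13.5. Gnas, the stimulatory G protein gene with several imprinted promoters, had a pair, chr2:174294533-174297639 (9.02) and chr2:174298655-174300977 (7.70). Inpp5f, an inositol phosphatase, had 9.17 and Mest 8.24. At Snrpn, a spliceosome protein gene of the Prader-Willi region, chr7:60003712-60005206 had a fold of 7.61 and met a pair of H4WT regions. All of these met H4WT.

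Regions within Igf2r, Trappc9 and Kcnq1 fell at the ends of imprinted non-coding RNAs that lie in those genes. Airn, which silences Igf2r on the paternal copy, had an H4K91Q region of fold 9.60 at an end (chr17:12741186-12743377). Peg13 in Trappc9 had 7.34, and Kcnq1ot1 in Kcnq1 had 5.28. H19, the non-coding RNA next to Igf2, had a region of 4.47 within 1 kb of an end. Meg3 had none at an end and 1 inside. H4WT had regions at the ends of all 5.

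MicroRNA genes, including those of an imprinted cluster, were rarely covered by H4K91Q. Of 1005 microRNA hairpins in the RefSeq table, H4K91Q regions overlapped 9 (0.896%), H4WT regions 177 (17.6%), and 8 had both. Of the 9, 3 lie under 1 H4K91Q region in the imprinted gene Rtl1, chr12:109594999-109595363, with a fold of 6.11 and an H4WT fold of 7.98. Mir136 and Mir3071 are transcribed from opposite strands of the same bases there, so their arms are partly complementary. The mature sequences follow 5′ to 3′ from RefSeq (GRCm38.p6), with the seed, bases 2 to 8, in capitals.
mmu-miR-432: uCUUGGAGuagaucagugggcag
mmu-miR-136-5p: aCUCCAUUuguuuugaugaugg
mmu-miR-136-3p: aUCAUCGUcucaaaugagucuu
mmu-miR-3071-5p: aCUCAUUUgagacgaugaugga
mmu-miR-3071-3p: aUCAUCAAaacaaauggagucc

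No seed was shared among these 5. The others with H4K91Q were Mir5125 in the wide Srrm2 region, Mir6935 at Actg1, Mir7217 in Grm4, Mir6546, Mir8109 and, without H4WT, Mir6965 in Ccnf.

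The imprinted genes without H4K91Q at an end were led, by H4WT fold, by Cdkn1c, a cell cycle inhibitor (12.2), Kcnq1, a potassium channel (11.7), and Dio3, a thyroid hormone deiodinase (11.4). Magel2, Mkrn3, Ndn and Peg12, neighbours in the Prader-Willi region, each had H4WT at an end and no H4K91Q region at an end or inside.

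In the windows of 250 bases before annotated starts, where strand is known, H4K91Q was again far rarer than H4WT. RefSeq gave 21262 such windows, alternative starts included, for 17491 protein-coding genes. H4K91Q overlapped 70 of them (0.329%) and H4WT 7123 (33.5%). Of 49 windows of imprinted genes, H4K91Q overlapped 12 (24.5%), at Nap1l5, Peg3, Usp29, Plagl1, Nnat, Mest, Commd1, Zrsr1, Mcts2, Snrpn and Grb10, and H4WT overlapped 26 (53.1%). The windows of Snrpn and Grb10 met no H4WT region. The windows that overlapped both histones, 54 in all, had a median of 17 CG dinucleotides, windows with H4WT alone 19, and all windows 10. These words refer to the window: of the 16 windows with H4K91Q alone, 5 lay under an H4K91Q region that met H4WT outside the window, as at Snrpn. The 16 windows with H4K91Q alone had a median of 3, and none had 10 or more.

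TGCCGC on either strand, an element that ZFP57 recognises when methylated, was in 10.2% of all these windows. It was in 13 of the 54 windows with both histones, 24.1% (13.5 to 37.6), in 17.5% of windows with H4WT alone (16.7 to 18.4) and in 0 of 16 with H4K91Q alone (up to 20.6%). The interval of the first holds the share of the second. Among the 12 imprinted windows with H4K91Q, 5 held it. Some windows overlap, as those of Mest do among these 5 and those of Fkbp6 among the 54. Snrpn and Snurf share the same window among the 16. The intervals therefore count some bases more than once. A match is not evidence of binding.

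Proteins of silent chromatin included some of the kept and gained genes. Of 25 heterochromatin and KAP1 genes, H4K91Q marked 3, or 12% (2.55 to 31.2), beside 1.27% of all protein-coding genes. This share rests on these 3 genes alone. In this list 15 genes were lost, and 57.4% of all protein-coding genes were. Rif1 was described above. Atf7ip, a partner of the H3K9 methyltransferase SETDB1, had chr6:136518549-136519298 with a fold of 8.55 over an H4WT region of 8.35. Lrif1, a partner of SMCHD1, was gained (6.61). Suv39h2, Trim28 and Smchd1 were lost, with H4WT folds of 11.4, 10.8 and 7.99. Among 28 Polycomb genes Ring1, which ubiquitylates H2A, was kept, with the H4K91Q region chr17:34019028-34020525 (fold 10.4), which met H4WT. The interval of this share (0.0904 to 18.3) holds the 1.27% of all genes. Of the Polycomb genes 24 were lost, with Pcgf1, Cbx8 and Rybp highest.

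Germline genes are silenced by DNA methylation in most cells. H4K91Q marked 3 of 26, or 11.5% (2.45 to 30.2), beside 1.27% of all protein-coding genes. They were Dpep3, a testis dipeptidase (7.68), Dazl, an RNA-binding protein of germ cells (4.95), and Mael, a factor of the piRNA pathway (3.59). All 3 overlapped H4WT. Ddx4, Sycp1 and Sycp3 led the 18 lost members, and of all protein-coding genes 57.4% were lost.

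For the lists of the stem cell state and of development, 57.4% of all protein-coding genes were lost and 1.27% were marked by H4K91Q, as given above. Of 32 pluripotency genes 1 was kept and 22 were lost. The kept one was Tet2, a methylcytosine dioxygenase, with an H4K91Q region of fold 4.37 over H4WT. Klf2, Gbx2 and Sox2 had the highest H4WT folds among the lost, at 11.7, 10.7 and 9.31. Of 36 neural progenitor genes 33 were lost, led by Zic2, Sox1 and Lhx2, and Pou3f2, a POU transcription factor, was kept with an H4K91Q region of fold 4.11 that met H4WT. Nefm, a neurofilament subunit, was the kept 1 of 36 neuronal genes, with an H4K91Q region of fold 9.91 (chr14:68120321-68122008) that met H4WT, and 26 were lost. Of 36 mesoderm and endoderm genes 29 were lost, of 39 Hox genes 38, and of 32 Wnt and Notch genes 31, with Wnt7b highest at an H4WT fold of 15.5. At gene ends H4K91Q marked none of these last 3 lists. The upper bounds of their intervals (9.74%, 9.03% and 10.9%) lie above the 1.27% of all genes. Counting the whole gene with 1 kb on each side, 1 Hox gene and 1 mesoderm or endoderm gene had an H4K91Q midpoint. No Wnt or Notch gene did. An H4K91Q region of fold 4.98 also overlapped the stretch just before an annotated start of Hoxd11, where H4WT had a fold of 11.4.

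Ribosomal protein and housekeeping genes were mostly lost, as were 57.4% of all genes, and replication-dependent histone genes mostly had neither histone. Of 83 ribosomal protein genes 61 were lost and none was marked by H4K91Q (up to 4.35%). Ribosomal protein genes have many retroposed copies, so their reads are uncertain. Of 30 housekeeping genes 22 were lost, and Actg1, an actin, was kept (7.56 over an H4WT region of 12.6). Of 26 histone chaperone and H3.3 genes 23 were lost, among them H3f3a (12.8) and Rbbp4 (12.4), and none was marked by H4K91Q (up to 13.2%). H4WT marked 10 of 67 replication-dependent histone genes, which lie in clusters of near-identical copies, and H4K91Q none (up to 5.36%), so 57 had neither. The upper bounds for lists without H4K91Q lie above the 1.27% of all genes.

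**Figure D4:**
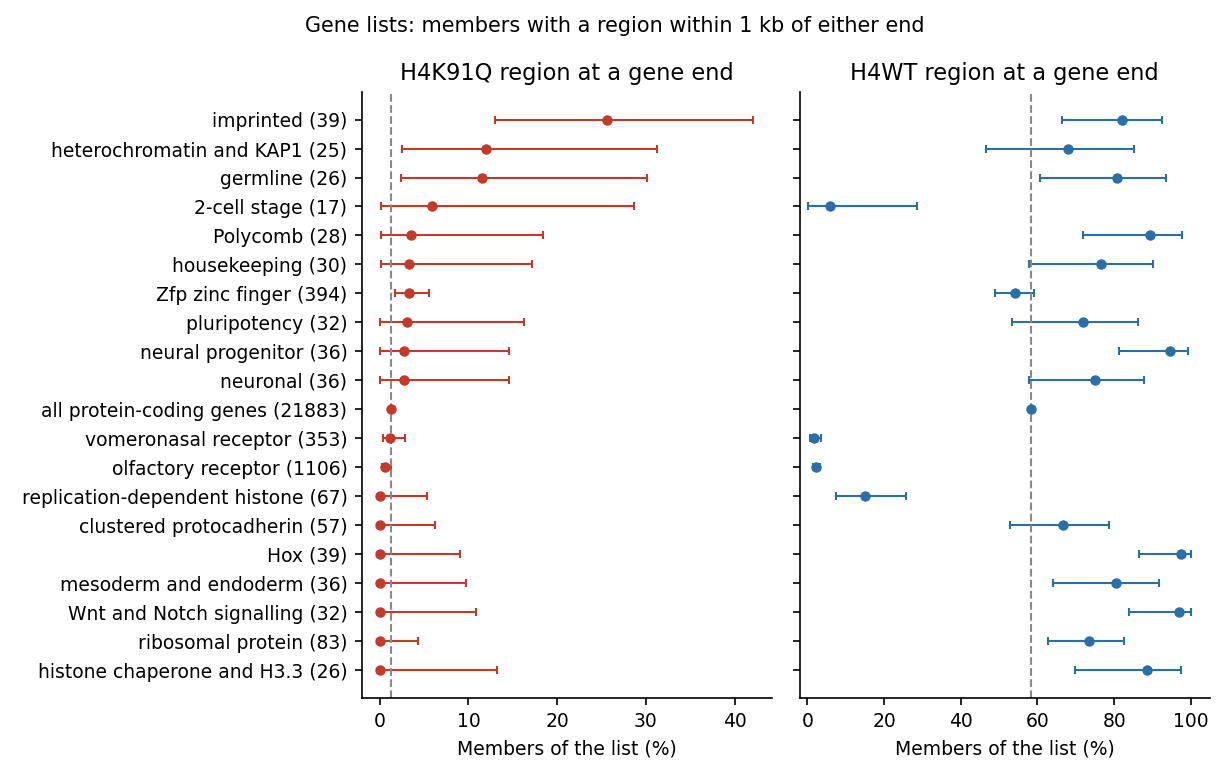
Members of each gene list with a region within 1 kb of either gene end (percent, horizontal axes) for H4K91Q (left) and H4WT (right), with exact 95% intervals, list sizes in brackets and the share of all protein-coding genes as a dashed line. Imprinted genes have the highest H4K91Q share (25.6%). For H4WT most lists lie to the right of the dashed line, with the Hox, Wnt and Notch and neural progenitor lists farthest.

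Gene families that lie in large clusters were marked by H4K91Q to unlike extents. Zfp genes encode zinc finger proteins, many of them repressors of retroelements. H4K91Q marked 13 of 394 at an end, or 3.299% (1.77 to 5.58), beside 1.27% of all genes, of which 8 were kept and 5 gained (Zfp605, Zfp160, Zfp992, Zfp808 and Zfp455). Inside Zfp genes or within 1 kb it had regions at 53, or 13.5% (10.2 to 17.2), beside 7.17% of all genes. Clustered protocadherins, adhesion proteins of neurons, had no H4K91Q region at an end in 57 genes, but 12 had one inside, and many of them overlap each other. Olfactory receptors had 7 of 1106 marked by H4K91Q, or 0.633% (0.255 to 1.30), 6 of them gained, and 24 by H4WT. Vomeronasal receptors had 4 of 353 marked, or 1.13% (0.310 to 2.88), all kept. Both intervals hold the 1.27% of all genes. Of 17 genes of the 2-cell stage, Tcstv3 was gained with a fold of 3.78. Members of these families have near-identical copies, and how the authors treated reads that match several places is not given in the sources used here, so these counts are uncertain.

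Gained regions were dense in some neighbourhoods, which held a small part of them. The 62 windows of 1 Mb with 20 or more gained regions held 13.9% of all gained regions. These windows had a median of 16 H4WT regions, beside 11 in all windows. The 2568 windows of 1 Mb with any region included 409 (15.9%) with more H4K91Q than H4WT regions, and these had a median of 2 protein-coding genes, beside 6 in the others. In 34 windows H4K91Q had regions and H4WT none, and in 392 the reverse held. The window with most gained regions was chr13:62000001-63000000, a cluster of zinc finger genes, with 55 gained and 12 H4WT regions. Zfp934 held 9 of the gained regions and Zfp808 8. Next were chr1:7000001-8000000 with 50 gained regions, 8 of them in Pcmtd1, and chr12:20000001-21000000 with 41. The window chr6:37000001-38000000 had 40, with 6 in Trim24, a chromatin reader and nuclear receptor cofactor, and chr13:3000001-4000000 had 39. A window among cytochrome P450, Nlrp and vomeronasal receptor genes, chr7:26000001-27000000, had 37 gained regions and 2 H4WT regions.

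Windows rich in kept regions lay at the ends of chromosomes Y and 4 and on chromosome 5. After the end of Y, the most kept regions were in chr4:156000001-157000000, with 27, of which 15 lay in Agrn, the neuromuscular synapse organiser agrin. Chromosome 5 had 26 kept regions in chr5:134000001-135000000, around Mettl27, Castor2, Eln and Gtf2ird1, and 26 in chr5:139000001-140000000, with 7 in Prkar1b, a protein kinase A subunit. In chr5:142000001-143000000 there were 25, with 6 in the adhesion gene Sdk1. Each of these chromosome 5 windows also had over 100 lost regions.

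The windows with most lost regions had next to no H4K91Q. They held from 11 protein-coding genes, around Gse1, to 54, around Sbno2, beside a median of 5 in all windows. In chr10:80000001-81000000 there were 475 lost and 4 H4K91Q regions, with Sbno2, Apc2, Atp8b3 and Tcf3 holding most. In chr8:120000001-121000000 there were 376 lost and 6 H4K91Q regions, and Gse1, a cofactor of a histone deacetylase complex, alone held 218 lost regions. The windows chr10:81000001-82000000, chr8:70000001-71000000 and chr8:122000001-123000000 had 358, 352 and 319 lost regions and 1, 0 and 2 H4K91Q regions. Lost regions also came in longer rows. With neighbouring midpoints at most 10 kb apart, 33.1% of lost regions lay in rows of at least 10, and 2.32% of gained ones. The lost list is also far longer, with 64333 regions beside 11530, and the part of list length in this was not tested. Of neighbouring midpoints, 26.3% in the gained list and 20.7% in the complete H4WT list lay within 1 kb of each other. Within 10 kb the order was the reverse, with 47.6% in the gained list and 60.2% in the H4WT list.

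**Figure D5:**
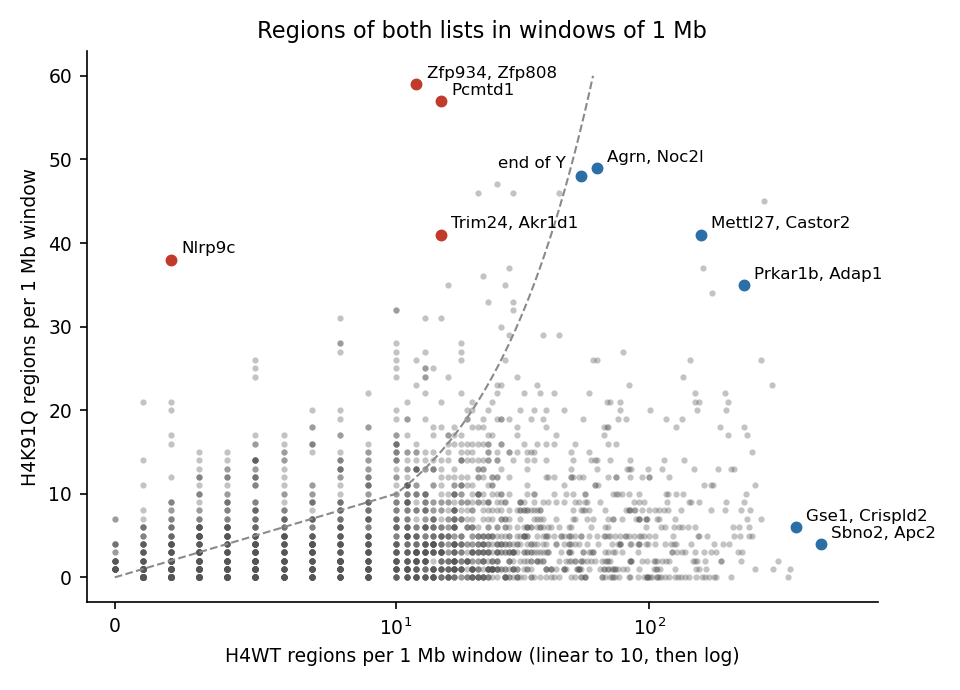
Each point is a window of 1 Mb, with its H4WT regions (horizontal axis, linear to 10 and then logarithmic) and H4K91Q regions (vertical axis, linear); the dashed line marks equal numbers. Windows with Zfp934, Pcmtd1, Trim24 and Nlrp9c lie above the line, and windows around Sbno2 and Gse1 lie at the far right with 4 and 6 H4K91Q regions.

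At the finest scale 23 rows of at least 10 gained regions held 268 regions, with a median length of 18.8 kb. The longest, chr10:83430912-83484520, had 22 regions over 53.6 kb. The genes with most gained regions inside were Etl4 (15), Etv5 (14), Dnah7a and Mid1 (11 each), and Ctbp2, Map3k5 and Sntg1 (10 each). By their ends Etl4, Etv5, Dnah7a, Ctbp2 and Map3k5 count as lost genes, and Mid1 and Sntg1 had neither histone at an end. Etl4 held 6 H4WT regions, all lost, and so did Ctbp2, a transcriptional corepressor. A830018L16Rik, Cep57l1, Rgs20, Zfp462, Zfp934 and Zfp982 had 9 each, and Zfp934 had no H4WT region. Mid1 shares sequence with Y, as said above, and its count is uncertain.

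The single gained regions of highest fold lay mostly in genes, away from their ends. The first was in Itgb5, an integrin (chr16:33852499-33853623, fold 20.2). A region 26190 bp from Mreg followed (chr1:72132601-72133485, fold 16.4), within a row of 11 gained regions. Regions in Senp2, a SUMO protease (15.2), Tiam1, an activator of Rac (15.0), and Chn1, a Rac inhibitor of axon guidance (14.9), came next. All 5 had H4K91R. Among kept H4WT regions the highest lay in Polrmt (33.5), Zfp629 (29.9), at chrY:90826073-90826969 (27.9), at chrY:90740901-90744871 (26.3) and in Spred2, an inhibitor of Ras signalling (24.9). Among lost ones the highest lay in Il3ra, a cytokine receptor (chr14:14347500-14348362, fold 19.3), and Col4a6, a basement membrane collagen (chrX:141276423-141276788, fold 19.2), followed by regions at Irf2bpl, Speg and Asic4.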

How the data were processed

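HA ChIP-seq peak lists of 4 mESC pulldowns were used, 1 library per group, with groups taken from the titles. Peaks were called with MACS2 on mm10, per the submitters' processing notes. Per the peak names in the files, the caller took 1 pulldown at a time with its own line's input. Neither an aligner, a MACS2 version, duplicate handling nor a q threshold is given in the sources used here.

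The score deposited for a peak was checked to be the whole part of 10 times −log10 q in 100% of peaks. The fold is the authors' ratio of pileup to background at the summit. It ranked regions within a list and was never compared between lists. The −log10 p and the −log10 q are as deposited by the authors, and the first was not used. The lowest −log10 q was 1.40 in both tagged lists. Summit offsets, as deposited by the authors, gave the distances within pairs. Depth is unknown, and a deeper library lets weaker places pass.

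Overlap needed 1 bp. Genes came from the RefSeq table of GRCm38.p6 (49939 genes on named chromosomes), and starts with strand from the RefSeq windows. Regions were placed by midpoint. Python 3.11.15, pandas 2.3.3, numpy 2.4.6, scipy 1.17.1 (exact intervals) and matplotlib 3.10.9 were used. On simulated regions 100% of 5000 planted overlaps and gaps and 100% of 3000 planted gene-end marks were recovered.

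The members and the 19 gene lists (7 by symbol pattern, the rest by 372 symbols, of which 363 matched) were chosen with earlier results of these data known. Named genes were the 10 highest by fold among kept, gained and lost genes (predicted Gm, Rik and BC genes passed over), list members with H4K91Q at an end, up to 3 lost members per list by H4WT fold, the 5 highest regions per class, the 10 genes with most gained regions and the 5 leading windows. Imprinted genes beyond that rule, the microRNAs and the windows and sequences shown beyond it were chosen after their values were seen. With 1 library per group no test was made. Alternatives were a −log10 q of 5, an overlap of 50%, a shorter H4WT list, empty-vector overlaps kept in, H4WT within 1 kb, and windows of 500 bp and 2 kb.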

Additional observations from a re-analysis of the deposited data

How the results depend on the processing

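Of 39 alternative values, 23 stayed within the interval or 1.5 times the reported value, and 16 moved. The share of H4K91Q regions meeting H4WT (18.8%) was 18.2% at a −log10 q of 5 or more, 10.7% with an overlap of 50% of each region, 6.92% with H4WT shortened to the H4K91Q list length, and 27.5% when H4WT within 1 kb counted. The share of H4WT regions kept (4.09%) was 2.27%, 6.95% and 5.06% with the overlap of 50%, the shorter list and the distance of 1 kb. With the shorter list, 77.6% of gained, 59.5% of kept and 10.4% of lost regions lay outside genes, and 140 genes were kept, 137 gained and 6246 lost. At a −log10 q of 5 or more, 19.9% of lost regions lay outside genes. Windows of 2 kb gave 351 kept and 94 gained genes. The order of gained, kept and lost regions by their share outside genes was the same in each setting that gave these shares. The imprinted counts were added after seeing the data.

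No paired analysis was possible because each group has 1 library. Depth cannot be read from the lists, and its part in the lost regions was not tested. Differences in transgene level between the lines cannot be told apart from the mutation.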

Other observations

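Non-coding genes of other classes, counted where a region overlapped the gene itself, differed in how often they held H4K91Q. H4K91Q regions overlapped 575 of 12727 lncRNA genes (4.52%, 4.16 to 4.89) and H4WT regions 3521 (27.7%), beside 1502 (6.86%) and 14456 (66.1%) of the protein-coding genes. Among pseudogenes, copies of other genes whose reads are uncertain, H4K91Q overlapped 193 of 9944 (1.94%) and H4WT 720 (7.24%). Of 408 tRNA genes H4K91Q overlapped 1 and H4WT 8, and of 1340 snoRNA genes the numbers were 1 and 8. Of the lncRNA genes that lay away from protein-coding genes, 382 of 7325 (5.22%) had H4K91Q and 1385 (18.9%) had H4WT.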
